A study of Mus musculus with 6 samples.

Results

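Nestin and 9 further genes that mark stages of adult neurogenesis (Sox2, Eomes, Igfbpl1, Neurod1, Sox4, Sox11, Dcx, Mki67 and Top2a) were followed in the hippocampus of mice given methamphetamine (MA) or saline. They were taken by symbol from a table of 16060 rows, in which all 10 were present. The choice was made with the MA and Control values of these libraries known. The differences of these 10 genes between the groups are therefore given as a description, with no p-value. Where the fit across all genes called one of them, this is given beside the share of all genes called, and supports nothing. Both groups were adult male C57BL/6 mice. By the study's methods, MA was injected intraperitoneally at a dose raised from week to week, control mice were injected with saline, and all animals were killed after behavioral testing. Each group has 3 libraries, each taken as 1 mouse from the study's n = 3 per group. The genome build and the depth of the libraries are not known.

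New granule neurons are added to the dentate gyrus throughout life. Radial glia-like stem cells, which hold the intermediate filament protein nestin and the transcription factor Sox2, give rise to dividing intermediate progenitors marked by Eomes, and these to neuroblasts that express Igfbpl1, Neurod1, Sox4, Sox11 and doublecortin (Dcx). Mki67 and Top2a mark cells in cycle. Nestin is also found in endothelial cells and pericytes, Sox2 in astrocytes, and Neurod1 in mature granule neurons, so a level in whole tissue is not that of the neurogenic lineage alone. In whole tissue, fewer cells of a type and less RNA per cell cannot be told apart.

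The starts of 4 of the genes are shown, namely those of the 2 tested genes of the 10 whose groups did not overlap, Nes and Sox11 (17.5% of all tested genes did not overlap, in either direction), and those of the proliferation genes Top2a and Mki67. Each stretch runs from 200 to 16 bases upstream of the RefSeq start on GRCm38.p6. They lie at chr3:87970893-87971077 on the plus strand for Nes and, on the minus strand, at chr12:27342734-27342918 for Sox11, chr11:99024205-99024389 for Top2a and chr7:135716395-135716579 for Mki67. Capitals mark matches, on either strand, to CCAAT (the CCAAT box) and to TTTGAA (the cell cycle homology region, a promoter element of many mitotic genes).
Nes: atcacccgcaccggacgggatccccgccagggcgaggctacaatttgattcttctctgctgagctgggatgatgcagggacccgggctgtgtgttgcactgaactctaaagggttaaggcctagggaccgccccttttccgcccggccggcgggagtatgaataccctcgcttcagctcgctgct
Sox11: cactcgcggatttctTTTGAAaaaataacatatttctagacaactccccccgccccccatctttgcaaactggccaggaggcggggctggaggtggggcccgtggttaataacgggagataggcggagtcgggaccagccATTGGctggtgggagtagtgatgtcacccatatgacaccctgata
Top2a: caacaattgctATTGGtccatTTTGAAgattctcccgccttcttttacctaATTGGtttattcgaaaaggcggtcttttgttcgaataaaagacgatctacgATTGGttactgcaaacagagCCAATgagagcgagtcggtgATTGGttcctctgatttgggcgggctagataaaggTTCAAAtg
Mki67: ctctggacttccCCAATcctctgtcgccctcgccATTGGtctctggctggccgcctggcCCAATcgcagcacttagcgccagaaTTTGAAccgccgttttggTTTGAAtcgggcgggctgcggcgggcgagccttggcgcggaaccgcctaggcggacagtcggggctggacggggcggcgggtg
In these stretches Top2a held 5 matches to CCAAT and 2 to TTTGAA, Mki67 held 3 and 2, and Sox11 held 1 and 1. The Nes stretch held no match to either. Over the full windows of 250 bases before to 50 after the start, 37.4% of all 32851 RefSeq windows held CCAAT and 17.9% held TTTGAA. The Sox core ACAAAG (18.7% of windows) and the E-box CAGATG (17.2%) were also searched on both strands, and neither was found in the windows of these 4 genes. Of the 10 genes, 9 had a window, and Igfbpl1 had none. Matches to different motifs shared no base in the windows of the 9 genes. A match is a run of letters only.

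Nes was the gene of the 10 that differed most. Nes (ENSMUSG00000004891) is a plus-strand gene of chromosome 3 (87971078 to 87980451 on GRCm38), and no other annotated gene overlaps it. Its annotated transcripts cover 4 exonic stretches, and 78.4% of the exonic length is in the longest. The level of Nes was 3.30, 3.28 and 4.45 RPKM in Control replicates 1, 2 and 3, and 1.10, 1.05 and 1.01 RPKM in MA replicates 1, 2 and 3. Every MA library was thus below every Control library, and the MA libraries lay close together. The mean was 3.67 ± 0.67 RPKM in the control group and 1.06 ± 0.05 RPKM in the MA group (SD, n = 3 each), a ratio of control to MA of 3.48. On the deposited log2 scale the difference was -1.18 (standard error 0.13, from the limma fit across all genes). Among the 13321 tested genes, Nes was 16th from the bottom in the order of log2 fold changes. The scale holds an added 1, so log2 differences of low genes are smaller than those of the level itself.

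Sox2, the other gene of the stem cell stage, a single-exon gene on chromosome 3 from 34650405 to 34652461, stood at 15.8, 15.3 and 17.7 RPKM in the control libraries and at 14.9, 15.9 and 14.9 RPKM in the MA libraries. The groups overlapped, and the log2 difference was -0.09. The long noncoding gene Sox2ot overlaps Sox2 on the same strand, so some of its reads may belong to that gene. Other annotated genes also overlap Sox4, Eomes, Neurod1, Mki67 and Top2a. Of the overlapping genes, Cerkl lies on the strand of Neurod1 and Gm23451 on that of Top2a, and the rest lie on the opposite strand. Overlap was read over whole gene spans, not exons. Whether counting used strand is not stated, so the values of Sox4, Eomes, Neurod1, Mki67 and Top2a are uncertain in these respects. Eomes, the transcription factor of intermediate progenitors, was near the bottom of the table, with 0.365, 0.147 and 0.0257 RPKM in the control libraries and 0.0549, 0.207 and 0.272 RPKM in the MA libraries. The Eomes means were 0.179 and 0.178 RPKM, while the single libraries ran from 0.0257 to 0.365 RPKM, so no difference was detectable at this level.

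Among the neuroblast genes, the groups were apart for Sox11 and overlapped for Sox4, Neurod1, Dcx and Igfbpl1. Sox11, which with Sox4 forms the pair of SoxC factors of immature neurons, is a single-exon gene on chromosome 12 from 27334264 to 27342574 that no other annotated gene overlaps. It was listed at 3.01, 3.02 and 2.97 RPKM in Control replicates 1, 2 and 3 and at 2.11, 2.06 and 2.05 RPKM in MA replicates 1, 2 and 3. The groups did not overlap, and the spread within each was small: the SD on the log2 scale was 0.01 in both groups, against a median within-group SD of 0.15 over all tested genes. The log2 difference of Sox11 was -0.38 (standard error 0.09), and its mean level in the MA group was 0.69 of that in the control group. This standard error comes from limma, which moderates the variance of each gene with that of other genes. It is therefore larger than the SDs of Sox11 alone would give. Sox4, on chromosome 13 from 28948919 to 28953713, was 5.22, 5.08 and 5.87 RPKM in the control libraries and 5.34, 4.995 and 3.43 RPKM in the MA libraries. MA replicate 3 lay below the other 5 libraries for Sox4, and those overlapped between the groups. Without that library the log2 difference of Sox4 was -0.05, against -0.21 with it.

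Neurod1, a basic helix-loop-helix factor of new and mature granule neurons, had 9.42, 8.46 and 8.88 RPKM in the control libraries and 8.16, 8.77 and 7.35 RPKM in the MA libraries, with groups that overlapped and a log2 difference of -0.13. Dcx, the microtubule-binding protein of migrating neuroblasts, was 0.93, 1.28 and 1.33 RPKM in the control libraries and 1.66, 1.37 and 0.98 RPKM in the MA libraries. Its mean was slightly higher in the MA group, by 0.09 on the log2 scale, and its groups overlapped. Igfbpl1, a secreted protein of the insulin-like growth factor binding family used as a neuroblast marker, ranged from 1.13 to 2.33 RPKM in the control libraries and from 0.74 to 2.31 RPKM in the MA libraries, and its log2 difference was -0.06. For Dcx and Igfbpl1 the difference between the groups was smaller than the SD within either group.

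**Figure D1:**
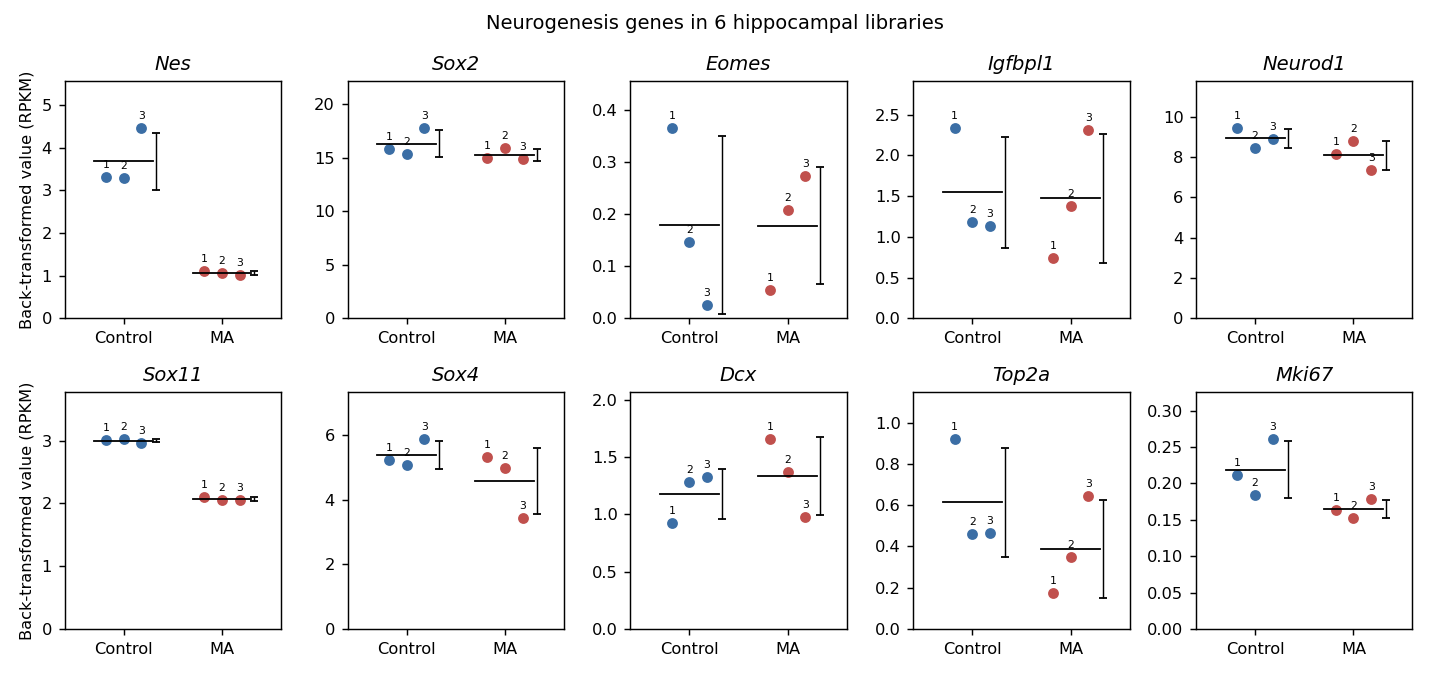
Level of each of the 10 genes in the 6 libraries (vertical axes, back-transformed RPKM, each from 0), with the replicate number above each point, the mean as a line and the SD as a bar beside it (n = 3 per group). The groups are apart for Nes, Sox11 and Mki67, and overlap for the other 7 genes.

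The genes of dividing cells were low. Mki67, the gene of the proliferation antigen Ki-67, was 0.212, 0.183 and 0.261 RPKM in the control libraries and 0.164, 0.153 and 0.178 RPKM in the MA libraries. Its groups did not overlap, although Control replicate 2 and MA replicate 3 were close, and the log2 difference was -0.07. Top2a, a topoisomerase needed to separate chromosomes at mitosis, was 0.921, 0.459 and 0.464 RPKM in the control libraries and 0.173, 0.351 and 0.645 RPKM in the MA libraries. The groups of Top2a overlapped, with a log2 difference of -0.22 and SDs of 0.23 and 0.25 in the control and MA groups.

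In all, 3 of the 10 genes (Nes, Sox11 and Mki67) were lower in every MA library than in every Control library, and none was higher in every one. Over all 16060 rows 9.37% were lower without overlap, and over the tested genes 10.2% were lower and 17.5% were apart in either direction. Eomes, Mki67 and Top2a were under the filter on low values, an RPKM of at least 0.5 in at least 3 libraries, so 7 of the 10 entered the limma fit. Of these, 1 gene, Nes, passed an adjusted p-value under 0.05, where 0.263% of all tested genes did and 0.0976% did in this direction. Since the genes were chosen on this contrast, nothing is read from either count. The pass of Nes was lost when any library other than MA replicate 3 was left out (5 of 6 fits), and also with a replicate block and with no filter. The log2 difference of Nes itself stayed between -1.23 and -1.06 in those 6 fits. The median log2 difference of the 10 genes was -0.11, and -0.09 without Nes, beside -0.01 for all tested genes.

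The order of the levels, which are per length and so can be set side by side within a library, changed for Nes. In the control group the order was Sox2, Neurod1, Sox4, Nes, Sox11, Igfbpl1, Dcx, Top2a, Mki67 and Eomes. Neighbours in this order had ranges that did not overlap, except Igfbpl1 and Dcx and, at the bottom, Mki67 and Eomes. In the MA group Nes stood 7th instead of 4th, after Sox11, Igfbpl1 and Dcx. Nes was above Sox11 in all 3 control libraries and below it in all 3 MA libraries. In the MA group the ranges of Igfbpl1 overlapped those of Sox11 and Dcx, and those of Dcx and Nes overlapped. The ranges of Eomes overlapped those of Top2a and Mki67. Top2a was above Eomes in all 3 MA libraries. Each of the other overlapping pairs held its order in 2 of the 3, so those pairs did not differ beyond their spread.

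A second pattern ran across the groups rather than between them. Control replicate 1 and MA replicate 3 held the highest and next highest values of Igfbpl1 (2.33 and 2.31 RPKM), of Eomes and of Top2a. The same 2 libraries held the lowest values of Dcx. MA replicate 1 had the lowest Igfbpl1 and Top2a and the highest Dcx. Mki67 did not follow, with its highest value in Control replicate 3. These are 6 libraries, Eomes and Top2a were under the filter on low values, the pattern was noticed after the values were seen, and it is given as a description.

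**Figure D2:**
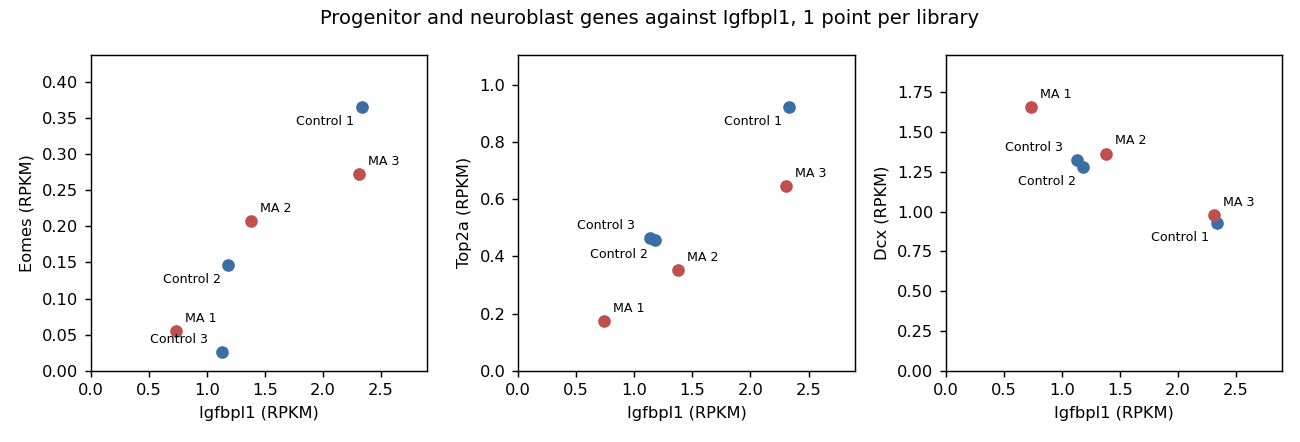
Levels of Eomes, Top2a and Dcx (vertical axes, RPKM) against Igfbpl1 (horizontal axes, RPKM), 1 point per library, blue for Control and red for MA. Control replicate 1 and MA replicate 3 sit together at an Igfbpl1 level of 2.33 and 2.31 RPKM, high for Eomes and Top2a and low for Dcx.

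To set the 10 genes beside the rest of the pathway, 6 lists from general knowledge were read in the same limma fit. The lists were chosen with earlier results of these data known. They held 158 genes, of which 133 were tested. None passed an adjusted p-value under 0.05 (limma), and the smallest adjusted p was 0.0783. An unadjusted p-value under 0.05 (limma) was reached by 27 of them, or 20.3%, and by 10.4% of all tested genes. Since the lists were chosen with these data known, nothing is read from such shares. With sample quality weights in limma 9 of the 133 (6.77%) passed the adjusted threshold, where 4.40% of all tested genes did, and without MA replicate 3 there were 4 (3.01%; Cenpa, Igf2, Nnat and Thbs4), where 1.93% of all tested genes did.

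Of 24 tested neural stem cell genes, 10 had positive and 14 negative log2 differences, with a median of -0.11. An unadjusted p-value under 0.05 (limma) was reached by 5, of which 2 were higher and 3 lower in MA. Over all tested genes the share was 10.4%. The groups did not overlap for 4 genes that were lower and 4 that were higher in MA, where 17.5% of all tested genes were apart in either direction. Many of these genes are also those of astrocytes. The largest differences were those of Thbs4, a thrombospondin, at -0.98 (standard error 0.34, limma adjusted p = 0.380), Hes5, a Notch target, at 0.77 (standard error 0.26, limma adjusted p = 0.383) and Gli1, a target of hedgehog signalling, at 0.68 (standard error 0.16, limma adjusted p = 0.219). Gli1 was 0.49, 0.65 and 0.92 RPKM in the control libraries and 2.23, 1.34 and 1.57 RPKM in the MA libraries, so the groups did not overlap. The summed level of the list was 434 to 461 RPKM in the control libraries and 395 to 440.2 RPKM in the MA libraries, ranges that overlapped. Abundant genes outweigh those at the level of Nes in this sum. Gfap was 114 to 124 RPKM in the control libraries and 104 to 122 RPKM in the MA libraries. Hopx was 83.3 to 90.4 RPKM in the control libraries and 68.6 to 81.2 RPKM in the MA libraries.

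For the 11 tested intermediate progenitor genes the median was -0.04, with 3 positive and 8 negative. Btg2, an antiproliferative gene that is also an immediate early gene, stood at -0.45 (standard error 0.15, limma adjusted p = 0.370). Insm1, a zinc finger factor of neurogenic progenitors, was 3.38, 2.94 and 2.81 RPKM in the control libraries and 2.37, 1.80 and 1.90 RPKM in the MA libraries, a log2 difference of -0.42 (standard error 0.12, limma adjusted p = 0.290). The Notch ligand Dll1 had a log2 difference of -0.31 (standard error 0.13, limma adjusted p = 0.487). Of the 11, 3 were lower in every MA library than in every Control library (Btg2, Insm1 and Dll1), where 10.2% of all tested genes were.

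The 25 tested neuroblast and immature neuron genes had a median of -0.01, with 11 positive and 14 negative. Calb2, the calretinin of immature granule neurons and of several other neurons, was 11.9, 14.2 and 28.2 RPKM in the control libraries and 62.3, 47.9 and 36.0 RPKM in the MA libraries. Its log2 difference was 1.44 (standard error 0.32, limma adjusted p = 0.203). Tac2, a tachykinin precursor, was at 0.97 (standard error 0.43, limma adjusted p = 0.495) and Nnat, neuronatin, at 0.61 (standard error 0.14, limma adjusted p = 0.203). The thalamus is a further source of Calb2. The 5 tested thalamic markers had log2 differences from 0.45 to 0.91. The summed level of all 6 listed thalamic markers was 22.0 to 32.2 RPKM in the control libraries. It was 58.7, 65.2 and 22.8 RPKM in MA replicates 1, 2 and 3. Their part in the Calb2 values was not tested.

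Of the 51 cell cycle genes 49 were in the table and 35 were tested, of which 28 had negative and 7 positive log2 differences, with a median of -0.12. Cenpa, a centromeric histone, had a log2 difference of -0.76 (standard error 0.30, limma adjusted p = 0.453). It was 3.58, 4.17 and 3.70 RPKM in the control libraries and 1.33, 1.03 and 3.87 RPKM in the MA libraries, so that MA replicate 3 stood with the control group. Ccnb2, a B-type cyclin, was at -0.47 (standard error 0.12, limma adjusted p = 0.245) and Ube2c, a ubiquitin enzyme of mitotic exit, at -0.41 (standard error 0.16, limma adjusted p = 0.450). The summed level of the 49 genes was 92.8 to 101 RPKM in the control libraries and 82.7 to 99.2 RPKM in the MA libraries.

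Of 28 tested niche signals, 14 had positive and 14 negative log2 differences. Igf2, an insulin-like growth factor, had the smallest p of the 6 lists. It was 25.0, 23.1 and 29.2 RPKM in the control libraries and 46.9, 62.4 and 84.4 RPKM in the MA libraries, a log2 difference of 1.26 (standard error 0.20, limma adjusted p = 0.0783). The Wnt ligands Wnt7b and Wnt7a had log2 differences of 0.47 and -0.44 (limma adjusted p = 0.223 and 0.219), each without overlap of the groups. Of the 28 genes, 6 were lower and 4 higher in MA without overlap, where 17.5% of all tested genes were apart. The 12 tested Sox genes other than Sox2, Sox4 and Sox11 had a median of 0.03. Their log2 differences ran from -0.20 for Sox13 to 0.29 for Sox5, and Sox6 stood at -0.20 (limma adjusted p = 0.601, 0.558 and 0.845).

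**Figure D3:**
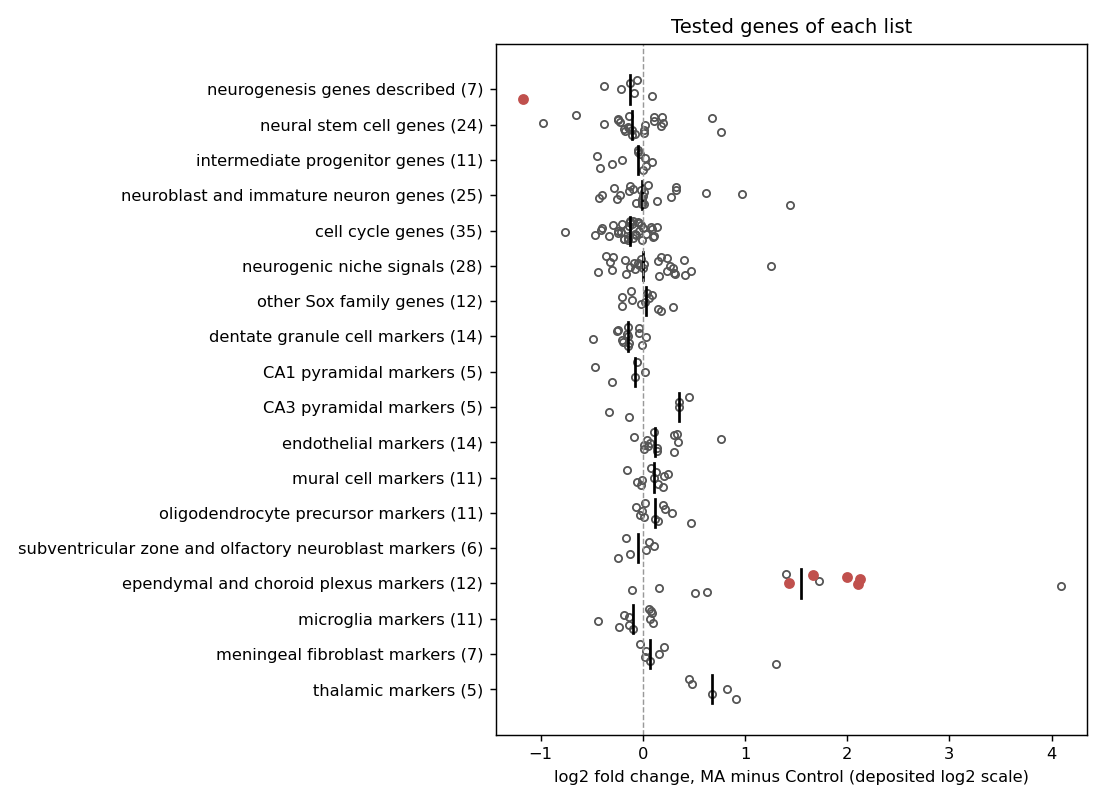
Log2 fold changes (horizontal axis, MA minus Control on the deposited log2 scale) of the tested genes of each list, with the number tested in parentheses, 1 circle per gene and the median as a line; filled circles passed a limma adjusted p-value under 0.05. Nes lies at -1.18, outside the other 6 tested genes of its row, and the called genes of the marker lists are 5 ependymal and choroid plexus markers, all higher in MA.

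As Nes is also found in vessels, endothelial and mural markers were read beside it. None of the 14 endothelial markers passed the adjusted threshold, and 2 reached an unadjusted p-value under 0.05 (limma). Over all tested genes the shares were 0.263% and 10.4%. Of the 14 markers, 13 had a positive log2 difference, and the median was 0.12. Their summed level was 224 to 265 RPKM in the control libraries and 249 to 307 RPKM in the MA libraries. Slco1a4, a transporter of the blood-brain barrier, had the largest difference of the list at 0.77 (standard error 0.28, limma adjusted p = 0.413), followed by Erg and Abcb1a at 0.34 each. Of the 11 mural markers, none passed the adjusted threshold (0 at an unadjusted p-value under 0.05), and the summed level was 94.9 to 104 RPKM in the control libraries and 100.5 to 104 RPKM in the MA libraries. The largest log2 differences of the mural list were those of Myh11 at 0.24, Tagln at 0.21 and the pericyte receptor gene Pdgfrb at 0.20 (limma adjusted p = 0.669, 0.734 and 0.598). Without MA replicate 3, Slco1a4 passed the adjusted threshold. The part of vessel cells in the Nes values was not tested.

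The 14 dentate granule cell markers, which tell of the tissue in which the lineage lies, were all tested. None passed the adjusted threshold, and 1 reached an unadjusted p-value under 0.05 (limma). Over all tested genes the shares were 0.263% and 10.4%. Of the 14 markers, 13 had negative log2 differences and the median was -0.15. Lct was at -0.49, Dock10 at -0.25 and Maml2 at -0.24 (limma adjusted p = 0.458, 0.519 and 0.595). The summed level was 232 to 302 RPKM in the control libraries and 238 to 267 RPKM in the MA libraries. None of these markers was at 0.

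Markers of ventricular tissue differed between the groups. Of the 12 ependymal and choroid plexus markers, 5 rose at a limma adjusted p-value under 0.05: Enpp2 (log2 difference 2.13, adjusted p = 0.0244), Folr1 (2.10, adjusted p = 0.0456), Clic6 (1.999, adjusted p = 0.0315), Aqp1 (1.66, adjusted p = 0.0315) and Kl (1.43, adjusted p = 0.0325). The share of all tested genes called higher in MA was 0.165%. The summed level of the 12 was 140 to 502 RPKM in the control libraries and 1954 to 5345 RPKM in the MA libraries, without overlap. Most of it came from the carrier protein gene Ttr, at 57.7, 166 and 410.3 RPKM in the control libraries and 1744, 2254 and 5033 RPKM in the MA libraries. The choroid plexus is a known source of Igf2. The levels of these markers moved with the treatment, so tissue content and treatment cannot be told apart here, and the part of such tissue in the Nes, Sox11 and Igf2 values was not tested. Leaving out any 1 of Control replicates 1, 2 and 3 or MA replicate 2 left none of the 5 past the threshold, and without MA replicate 1 there were 3. Without MA replicate 3, 12 genes of all marker lists passed, among them Enpp2, Folr1, Clic6, Aqp1 and Kl.

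**Figure D4:**
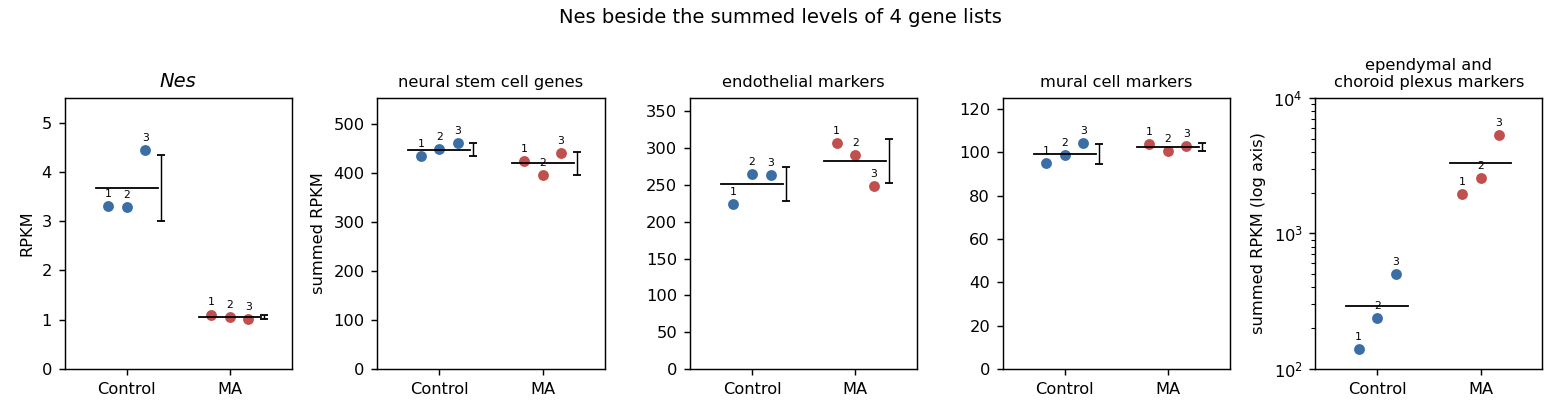
Level of Nes (RPKM) and summed levels of 4 gene lists (summed RPKM, the last on a log axis) in the 6 libraries, with the mean as a line and the SD as a bar on the linear axes (n = 3 per group) and replicate numbers above the points. The groups are apart for Nes, lower in MA, and for the ependymal and choroid plexus markers, higher in MA, and overlap for the neural stem cell, endothelial and mural lists. The sums are weighted to the abundant genes of each list.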

How the data were processed

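Each of the 6 libraries holds hippocampal RNA and was taken as 1 mouse, a reading of the study's group size. The paper names Hisat2, featureCounts and a conversion to FPKM, whereas the submitters' processing notes name Bowtie 0.12.2 and the builds mm8 and mm9, so the aligner and build behind the table are unsettled. The authors deposited 1 table named as RPKM, whose values were read as log2 of the value plus 1, from their range and their lowest value of 0. All 6 libraries share the same highest value, so some normalization between them had been applied, and neither step is described in the sources used here. RPKM in the text is 2 to the power of the deposited value, minus 1. Read totals are unknown, and no interval from counting is given. No source says that mice were paired between the groups. Each p-value sets a group difference against the spread between these libraries, moderated across genes by limma.

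The deposited values were tested with limma 3.58.1 in R 4.3.3 (eBayes with a trend, no covariate), with Benjamini-Hochberg adjustment, over the 13321 of 16060 rows that reached an RPKM of 0.5 in 3 or more libraries. The study's DESeq2 needs counts and was not run. Simulated tables (10, each with 13321 genes) in which 200 genes were shifted by 1 on the log2 scale gave back 76.3% of the shifted genes, with 4.96% false calls (medians). The simulated noise was independent between genes and between libraries, so these rates need not hold for the real libraries.

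The genes described and the gene lists were chosen with earlier results of these data known. From each list, the text names the genes called at an adjusted p under 0.05 and, where fewer than 3 were called, those with the largest absolute log2 fold change up to 3 in all. It also names the 5 tested genes most like Nes. One gene that this rule names is not reported here. Ttr was added after its values were seen, and Gfap and Hopx were also named outside this rule. Of the listed symbols, 2 stand on 2 rows each and were read from the row with the higher mean. As a check of pairing, each library was centred on its group mean and correlated across genes with the library of the same number in the other group, which gave -0.197, -0.242 and -0.337 for replicates 1, 2 and 3, so the numbers were not taken as pairs. Alternatives were an offset of 0.1, no filter, a minimum mean of 5, quantile normalization, median centring, no trend, sample quality weights, a replicate block and leaving out each library. Locations come from GENCODE M21 on GRCm38, matched by Ensembl identifier for all 10 genes, and promoters from RefSeq on GRCm38.p6. Proteins were not analysed here.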

Additional observations from a re-analysis of the deposited data

How the results depend on the processing

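All log2 differences of Nes, Sox2, Sox4, Sox11, Neurod1, Mki67 and Top2a stayed negative under the 14 alternatives, and Nes ran from -1.69 (offset of 0.1) to -1.06. No filter, the minimum mean, no trend and the replicate block leave a log2 difference as it is. For Nes, Sox11 and Mki67, whose groups did not overlap, leaving out 1 library cannot change the sign either. Such fits are no test of the sign. Quantile normalization and median centring are weak tests too, as the libraries already shared their highest value and had medians from 2.76 to 2.77. The sign changed for Dcx without MA replicate 1 (-0.0049), for Igfbpl1 without Control replicate 1 or MA replicate 1, and for Eomes in 5 of the 14. The median of the 10 genes was -0.159 to -0.0726 when 1 library was left out. The count of 35 called genes became 3 with no filter, 20 with a minimum mean of 5, 586 with sample quality weights and 15 with the replicate block, and 0 to 257 with 1 library left out. The cause was not tested. The count of 0 in the pathway lists became 9 with the weights and 0 to 4 with 1 library left out, and the 5 marker genes became 0 with no filter, 2 with the minimum mean, 16 with the weights and 0 to 12 with 1 library left out. With the replicate block Nes was not called, the pathway count stayed at 0 and 4 marker genes were called; same-numbered libraries did not deviate together. Nes was under the minimum mean of 5 and was not tested there. The unknown depth limits what can be said of Eomes, Mki67 and Top2a.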

Other observations

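The tested genes whose 6 values were most like those of Nes, by Pearson's r over the 6 libraries, were Plod1 (0.994), Ints12 (0.990), Oser1 (0.989), Ubtf (0.989) and Ppil4 (0.988), and 9 tested genes had an r above 0.98. Sox11 was 15th in this order, at 0.975. The r follows mainly the gap between the groups, which these genes share, and the likeness is a description only. The log2 differences of these 5 genes were from -0.33 for Plod1 to -0.23 for Ppil4, and none passed the adjusted threshold in limma. Plod1, a lysyl hydroxylase of collagen, was 3.09, 3.07 and 3.17 on the deposited log2 scale in the control libraries and 2.79, 2.75 and 2.80 in the MA libraries.

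Markers of other cells that could hold neurogenesis genes were read as well. Over all tested genes, 0.263% passed the adjusted threshold and 10.4% reached an unadjusted p-value under 0.05 (limma). Of 11 oligodendrocyte precursor markers, cells in which Sox genes and cell cycle genes are also expressed, none passed the adjusted threshold in limma (2 at an unadjusted p-value under 0.05). The largest difference was that of Pdgfra at 0.47, followed by Neu4 at 0.29 and Lhfpl3 at 0.21. The 6 tested markers of subventricular zone and olfactory neuroblasts had a median of -0.05 and none passed (0 at an unadjusted p-value under 0.05), with Dlx1 at -0.24 and Dlx2 at -0.13. Among 11 microglia markers none passed (0 at an unadjusted p-value under 0.05), with Aif1 at -0.43, P2ry12 at -0.23 and Trem2 at -0.18. Among 7 meningeal fibroblast markers none passed (1 at an unadjusted p-value under 0.05), with Dcn at 1.30, Slc6a13 at 0.21 and Col1a2 at 0.16. The 5 CA1 markers had log2 differences from -0.47 for Pou3f1 to 0.02, with Wfs1 at -0.30 and Fibcd1 at -0.08. Those of the CA3 markers Socs2, Coch and Grik4 were 0.46, 0.36 and 0.35, and none of the CA1 or CA3 markers passed the adjusted threshold in limma (2 and 1 at an unadjusted p-value under 0.05). The thalamic markers Tcf7l2, Zic1 and Prkcd were at 0.91, 0.82 and 0.68, and none passed (1 at an unadjusted p-value under 0.05).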
